A study of Mus musculus with 9 samples.

Results

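The respiratory chain genes described here are 48 subunits of the oxidative phosphorylation system, taken from a given list of 35 nuclear genes and all 13 protein genes of the mitochondrial genome. They were found by gene symbol among the 55487 genes of the count table, where each of the 48 had an entry, and all 48 were among the 15237 genes that passed the filter on low counts. By complex they comprise 15 nuclear and 7 mitochondrial genes of complex I, 4 nuclear genes of complex II, 4 nuclear and 1 mitochondrial gene of complex III, 7 nuclear and 3 mitochondrial genes of complex IV, 4 nuclear and 2 mitochondrial genes of complex V, and Cycs, which encodes cytochrome c. Ndufa4 was placed in complex IV, where its protein is now known to sit.

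The samples were B16F10 cells, an established mouse melanoma line, harvested after 6 h. In the IFNγ plus FK866 group the cells received interferon gamma at 50 ng/mL together with 50 nM FK866, in the IFNγ group interferon gamma alone at 50 ng/mL, and in the media group neither. FK866 inhibits NAMPT, which makes NAD from nicotinamide, and no group received FK866 without IFNγ. The protocol text speaks of mouse or human IFNγ and cites a mouse reagent. Each group had 3 bulk libraries, titled Control 3, Control 4 and Control 5 whatever the treatment, and called number 3, number 4 and number 5 here. What the numbers stand for is not stated, nor whether the libraries of a group are separate cultures, and a p-value here reflects variation among libraries that may be technical.

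The respiratory chain passes electrons from NADH and succinate through complexes I to IV to oxygen and pumps protons across the inner mitochondrial membrane, and complex V uses the proton gradient to make ATP. Its subunits come from both genomes: nuclear genes are transcribed singly and their proteins imported, whereas the mitochondrial genes are cut out of long transcripts that start from each strand of a small circular genome. Complex II is encoded in the nucleus alone. NRF1, ETS factors of the GABP kind, the coactivators PGC-1α and PGC-1β (Ppargc1b) and the nuclear receptor ERRα (Esrra) are textbook activators of the nuclear genes.

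Library totals lay between 15317003 and 18466972 counts, and levels are given as counts scaled to library size (CPM). The 13 mitochondrial members held 3.14% to 4.88% of the counts and the 35 nuclear members 0.527% to 0.631%. The melanocyte lineage list was present in full, 7 of 7 genes tested with a summed level of 14982 to 19023 CPM, while Krt5, Krt14, Cdh5, Kdr, Ptprc, Itgam and Adgre1 had no count in any library and no other leukocyte, endothelial or fibroblast marker exceeded 11.3 CPM. Of the melanocyte genes 1 of 7, Mitf, fell with IFNγ (log2 -1.27, edgeR adjusted p = 7.73e-04), 3 of 7 with the library number as a block, and the part of this in the results below was not tested. Of 6 interferon response genes, 6 rose with IFNγ, among them Irf1 by 5.51 on the log2 scale (SE 0.16, edgeR adjusted p = 3.97e-08). In bulk RNA, fewer cells expressing a gene and less of its RNA per cell cannot be told apart.

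The levels per length covered a wide range, and 6 mitochondrial genes stood far below the others. On the scale of CPM per kilobase of exon, averaged over 9 libraries, the highest mitochondrial levels were 11579 for mt-Co1, the catalytic core subunit of complex IV, 7516 for mt-Nd1 of complex I and 4911 for mt-Cytb, cytochrome b of complex III. The lowest were 8.23 for mt-Nd3, 41.0 for mt-Nd4l and 42.1 for mt-Co3. Between these extremes mt-Co2, mt-Atp8 and mt-Atp6 were at 66.7, 67.9 and 69.0 CPM per kilobase, and mt-Nd6, which lies on the other strand from the remaining 12, at 537. Among nuclear genes the highest levels per kilobase were 344 for Atp5b and 210.03 for Atp5a1, the catalytic and regulatory subunits of the F1 head of ATP synthase, and 229 for Cox8a, a small subunit of complex IV. The lowest were 12.01 for Ndufb5, 14.8 for Ndufs3 and 18.3 for Ndufa6, all of complex I. The length used is that of all annotated exons merged, which can exceed that of a single transcript and so lower the value. For Ndufs3 it was 2178 bases, where 1 annotated transcript has 1046, while for mt-Co1 both were 1545. The part of this in the order of the genes and in the gap between the genomes was not tested.

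**Figure D1:**
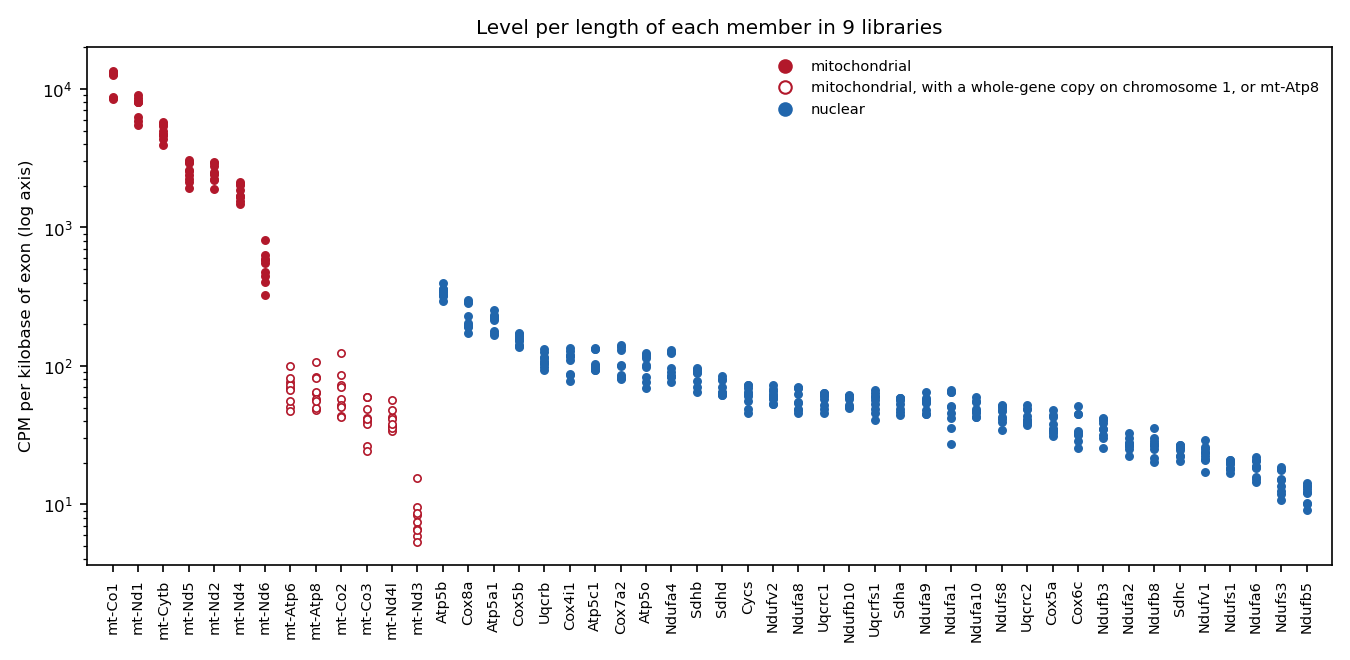
Level of each of the 48 members per library, in CPM per kilobase of exon on a log axis, with 9 points per gene. Open red symbols are mt-Atp6, mt-Atp8, mt-Co2, mt-Co3, mt-Nd4l and mt-Nd3, which lie between 8.23 and 69.0 on average, against 537 to 11579 for the 7 other mitochondrial genes.

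The 6 low genes all lie opposite a run of nuclear copies on chromosome 1, which also covers parts of mt-Co1 and mt-Nd4, neither of them low. The GENCODE annotation of GRCm38 places 7 pseudogenes of mitochondrial genes at chr1:24611535-24616197, in the same order as in the mitochondrial genome and with nearly the same spacing. Gm28661 matched 681 of 681 aligned bases of mt-Co2, Gm10925 678 of 678 of mt-Atp6, Gm28437 783 of 783 of mt-Co3, Gm10222 294 of 294 of mt-Nd4l and Gm28438 344 of its 345 aligned bases of mt-Nd3, each over 99.0% or more of the gene. Gm29216 covered 31.3% of mt-Co1 and Gm28439 covered 63.6% of mt-Nd4. The sixth low gene, mt-Atp8, has no annotated copy of its own, but it lies at chrM:7766-7969, between mt-Co2 and mt-Atp6 and overlapping mt-Atp6 by 43 bases, opposite a stretch of 233 bases between Gm28661 and Gm10925. A window of 80 bases is printed from mt-Co2 (chrM:7457-7536, plus strand), from Gm28661 (chr1:24615042-24615121, minus strand) and from Gm13341 (chr2:22587451-22587530, minus strand), an older copy on chromosome 2. Capitals mark bases that differ from mt-Co2.
mt-Co2: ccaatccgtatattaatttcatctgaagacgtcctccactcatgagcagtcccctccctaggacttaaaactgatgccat
Gm28661: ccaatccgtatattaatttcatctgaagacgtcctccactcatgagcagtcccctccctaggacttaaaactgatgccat
Gm13341: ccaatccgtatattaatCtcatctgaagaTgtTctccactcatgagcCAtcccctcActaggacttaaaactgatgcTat
A read from this window of mt-Co2 has an exact second place in Gm28661, whereas the window of Gm13341 differs at 7 positions. Over all libraries mt-Co2 had 6776 counts and Gm28661 had 8700. The totals were 7033 for mt-Atp6 and 11554 for Gm10925, 4918 for mt-Co3 and 6018 for Gm28437, 426 for mt-Nd3 and 1997 for Gm28438, and 1834 for mt-Nd4l and 1772 for Gm10222. For mt-Co1, which Gm29216 copies in part and Gm13340 on chromosome 2 over its whole length at 97.61% identity, the gene had 2693263 counts, Gm29216 had 7696 and Gm13340 had 5628. For mt-Nd4 the gene had 374838 counts and Gm28439 had 3928. How reads with several places were counted is not given in the sources used here. The counts of the 6 low genes and of the copies are therefore uncertain, as are those of mt-Nd4 and mt-Co1 over their copied stretches. The part of the copies in the low levels was not tested. Among nuclear members, 8 of 35 had a processed pseudogene of 95% identity or more over at least 100 bases, and none of these 16 pseudogenes held more than 0.612% of its parent gene's counts. Copies annotated as protein-coding held more: Gm10053 matched Cycs at 945 of 946 bases and had 505 counts against 31548 for Cycs, and Gm11273 matched Cox5b at 387 of 390 bases and had 340 counts against 37274 for Cox5b. Some members also overlap a gene on the opposite strand, among them Cox6c with Vps13b over 251 bases, Ndufb5 with Mrpl47 over 530 and Cox4i1 with Emc8 over 154. Whether the counting used strand is not given in the sources used here, so reads from these stretches cannot be assigned to 1 gene with certainty.

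With IFNγ plus FK866 against IFNγ alone, the comparison that isolates the NAMPT inhibitor, no respiratory chain gene passed the test. The count was 0 of 48 members called by edgeR at an adjusted p below 0.05, where 0% of all genes tested were called, 0 of 15237. At an unadjusted p below 0.05 there were 0 of the 48 and 88 of all genes. In a fit with the library number as a replicate block the count was 0 of 48, beside a background of 0.0197%, and 6 of 48 (12.5%) had an unadjusted p below 0.05, as did 3.76% of all genes. The nuclear members nevertheless leaned to lower values: with the block, 33 of 35 had a log2 fold change below 0, with a median of -0.07, while 54.6% of all genes were below 0 and their median was -0.01. Counted per pair, 14 of the 35 were lower with FK866 in all 3 numbers and 1 was higher, where 16.2% of all genes were lower and 12.1% higher in all 3 numbers. No member had all FK866 libraries above (1.94% of all genes) or below (1.39%) all IFNγ libraries. Several lists read further below leaned likewise with the block. Of 43 other oxidative phosphorylation subunits 38 were below 0 (median -0.06), and of 18 genes of the TCA cycle and pyruvate entry 17 (median -0.06). Of 31 small-subunit proteins of the mitochondrial ribosome 26 were below 0 (median -0.04). Of 45 assembly factors 27 were, and of 16 genes of mitochondrial DNA and transcription 8. These lean values are counts of directions and carry no test.

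The size that the data leave room for was similar for the nuclear members and the 7 mitochondrial genes with high counts. It was larger for the 6 low mitochondrial genes, with a typical 95% interval of 0.32 to either side, against 0.125 for the 7. The log2 fold changes of nuclear members lay between -0.31 for Ndufa1 and 0.05 for Uqcrb with the block, and the typical 95% interval reached 0.14 to either side. For the 7 mitochondrial genes with the high counts the range was -0.02 to 0.08, and every interval lay between -0.19 and 0.32. The 6 low mitochondrial genes had estimates from -0.63 to -0.115, 6 of 6 below 0, with intervals reaching -1.21 and 0.15. The pairs were not uniform: in numbers 3 and 4 all 6 were lower with FK866, and in number 5 all 6 were higher, by log2 differences from 0.125 for mt-Nd3 to 0.51 for mt-Atp8. With the copies added, the block fit gave 0.255 for mt-Co2, 0.12 for mt-Atp6, 0.10 for mt-Nd4l, 0.055 for mt-Co3 and -0.04 for mt-Nd3, none called.

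Ndufa1, a small accessory subunit of complex I encoded at chrX:37187588-37191163 on the minus strand, had the lowest value of the nuclear members. It had 27.1, 15.0 and 11.5 CPM in numbers 3, 4 and 5 of the IFNγ plus FK866 group, 28.1, 19.2 and 17.5 CPM in the IFNγ group, and 27.2, 21.6 and 21.2 CPM in media. The treatments lay within about 1 CPM of each other in number 3, and in numbers 4 and 5 the IFNγ plus FK866 libraries were the lowest. The difference to IFNγ was -0.31 (SE 0.12) with the block, at an edgeR adjusted p of 0.987. Uqcrfs1, the Rieske iron-sulfur protein of complex III, had 86.6, 55.3 and 72.8 CPM with IFNγ plus FK866, against 91.5, 66.3 and 82.3 CPM with IFNγ, a difference of -0.17 (SE 0.065, edgeR adjusted p = 0.987 with the block). Each pair was lower with FK866, while the groups as a whole overlapped. Cox7a2, a small subunit of complex IV, and Ndufa9, an accessory subunit of complex I near the quinone site, showed the same order of sizes, at -0.15 with the block and -0.12 without it.

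Among mitochondrial genes the smallest p-values belonged to mt-Nd3, mt-Co2 and mt-Atp6, all from the 6 low genes. For mt-Nd3, a complex I subunit, the levels were 2.07, 1.87 and 3.34 CPM with IFNγ plus FK866, 5.40 (number 3), 2.92 and 3.02 CPM with IFNγ, and 2.57, 2.301 and 2.27 CPM in media. Number 3 of the IFNγ group stood alone at the top. mt-Co2, the subunit that takes electrons from cytochrome c, had 39.4, 29.5 and 49.4 CPM with IFNγ plus FK866, 85.3, 35.8 and 34.8 CPM with IFNγ, and 59.0, 29.1 and 48.1 CPM in media. Here too the IFNγ library of number 3 was the highest of all 9. The difference of IFNγ plus FK866 to IFNγ was -0.33 (SE 0.17, edgeR adjusted p = 0.987 with the block), and without the IFNγ library of number 3 it was 0.01.

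The identical copy of mt-Co2 differed in the opposite direction. Gm28661 had 64.6, 66.4 and 83.1 CPM with IFNγ plus FK866, against 46.6, 30.5 and 53.4 CPM with IFNγ and 61.8, 47.1 and 62.4 CPM in media. All 3 IFNγ plus FK866 libraries were above all 3 IFNγ libraries. With the block it rose by 0.74 on the log2 scale against IFNγ (SE 0.09, edgeR adjusted p = 0.00281), and it was the sole copy of the 7 to be called there. Without the block the estimate was 0.71 at an edgeR adjusted p of 1.00. All 7 copies had estimates above 0 against IFNγ, with a median of 0.34, and all 7 were below 0 for IFNγ against media, with a median of -0.24, where the block fit called Gm28661 (-0.41) and Gm28439 (-0.39) as lower. These comparisons share the IFNγ libraries. When the counts of mt-Co2 and Gm28661 were added, the sum came to 104, 95.8 and 133 CPM with IFNγ plus FK866, 132, 66.3 and 88.1 CPM with IFNγ, and 121, 76.3 and 110.5 CPM in media. The summed difference to IFNγ was 0.255 (SE 0.11, edgeR adjusted p = 0.987 with the block), in the opposite direction to mt-Co2 alone.

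**Figure D2:**
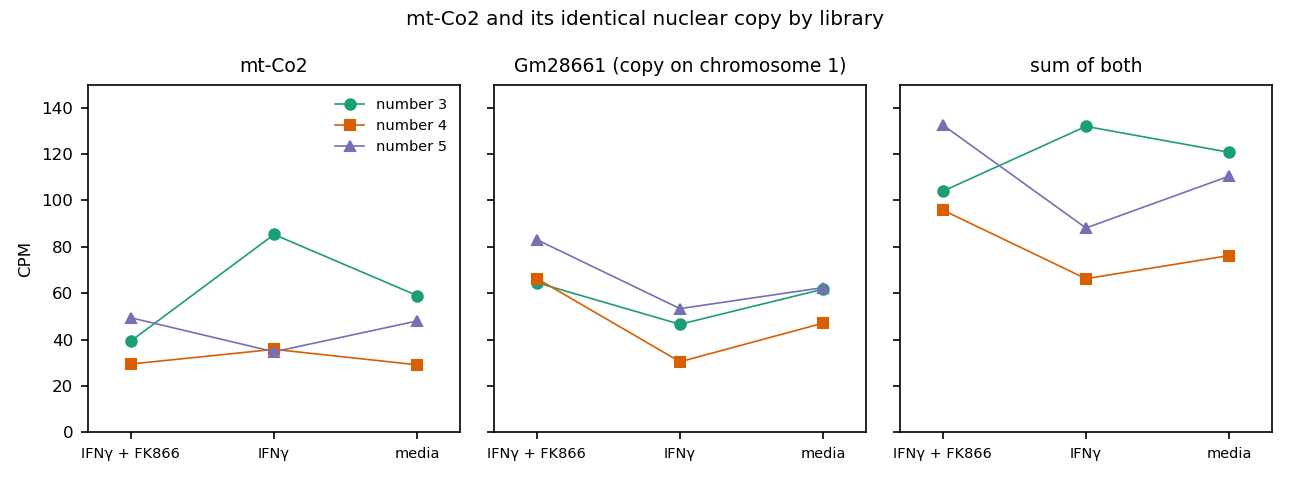
Levels of mt-Co2, of its identical copy Gm28661 on chromosome 1 and of both added together, in CPM on an axis that starts at 0, for each treatment; colours and symbols give the library number and lines join libraries of 1 number. In number 3 mt-Co2 is 39.4 CPM with IFNγ plus FK866 and 85.3 CPM with IFNγ, while Gm28661 is 64.6 and 46.6 CPM.

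IFNγ against media asked whether interferon alone changed these genes, and no member was called: 0 of 48, where 3.3% of all genes were. In the fit with the block the count was again 0 of 48, beside a background of 14.3%, and 4 of 48 (8.33%) had an unadjusted p below 0.05, as did 23.2% of all genes. The nuclear members centred on no difference, with a median log2 fold change of 0.00 and a range from -0.15 for Uqcrb to 0.12 for Uqcrfs1 with the block, where 18 of 35 were below 0 and 52.1% of all genes were. In all 3 pairs 5 of the 35 were lower (22.3% of all genes) and 3 higher (20.2%). Uqcrb, an accessory subunit of complex III, had 99.4, 82.3 and 95.5 CPM with IFNγ, against 115, 90.8 and 102 CPM in media. It was lower in each pair, by 0.15 in the fit (SE 0.07), with an edgeR adjusted p of 0.169. Atp5b and Ndufs8, the other nuclear members with the smallest p in the fit without the block, differed by 0.09 and -0.12.

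In the counts as deposited, most of the 7 mitochondrial members with high counts lay below 0 and the 6 low ones above 0, with none past the test. Of the 7, 6 were below 0 with IFNγ against media in the block fit, with a median of -0.09. The lowest p was that of mt-Cytb, which had 6389, 4527 and 5309 CPM with IFNγ, against 6625, 5361 and 5711 CPM in media, a difference of -0.13 (SE 0.055, edgeR adjusted p = 0.136). All 6 low genes were above 0, with a median of 0.26. The largest was mt-Nd3 at 0.64 (SE 0.28, edgeR adjusted p = 0.166), followed by mt-Co3, a core subunit of complex IV, at 0.32 (SE 0.14, edgeR adjusted p = 0.169). When the counts of each chromosome 1 copy were added to its gene, the block fit gave log2 fold changes of 0.05 for mt-Nd3, 0.01 for mt-Co3, 0.00 for mt-Nd4l, -0.12 for mt-Co2 and -0.12 for mt-Atp6, none called. mt-Nd3 was the only member of the 48 whose IFNγ libraries all lay above all media libraries, a pattern that 7.97% of all genes showed, and no member lay below (5.85% of all genes).

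IFNγ plus FK866 against media gave 0 of 48 members called, with 3.36% of all genes called. With the block, 1 of 48 was called beside a background of 16.1% in either direction and 7.61% lower: Ndufa1 fell by 0.44 on the log2 scale (SE 0.12, 95% interval -0.69 to -0.185, edgeR adjusted p = 0.0153). The fall lay in numbers 4 and 5, at -0.51 and -0.86, while number 3 showed -0.01. The call was lost when the media library of number 4 or 5, or the IFNγ plus FK866 library of number 4 or 5, was left out. With the block, 31 of 35 nuclear members were below 0 (median -0.085), where 53.8% of all genes were (median -0.02). So were 41 of 43 other oxidative phosphorylation subunits, 18 of 18 genes of the TCA cycle and pyruvate entry, and 29 of 45 assembly factors. In all 3 pairs 11 of the 35 were lower (23.1% of all genes) and 0 higher (18%), and no member's IFNγ plus FK866 libraries all lay above (7.98%) or below (6.29%) the media libraries. Ndufb3 and Ndufb5, complex I accessory subunits, were at -0.17 and -0.14 without the block, and mt-Cytb, mt-Co2 and mt-Nd1 at -0.09, -0.20 and -0.10.

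**Figure D3:**
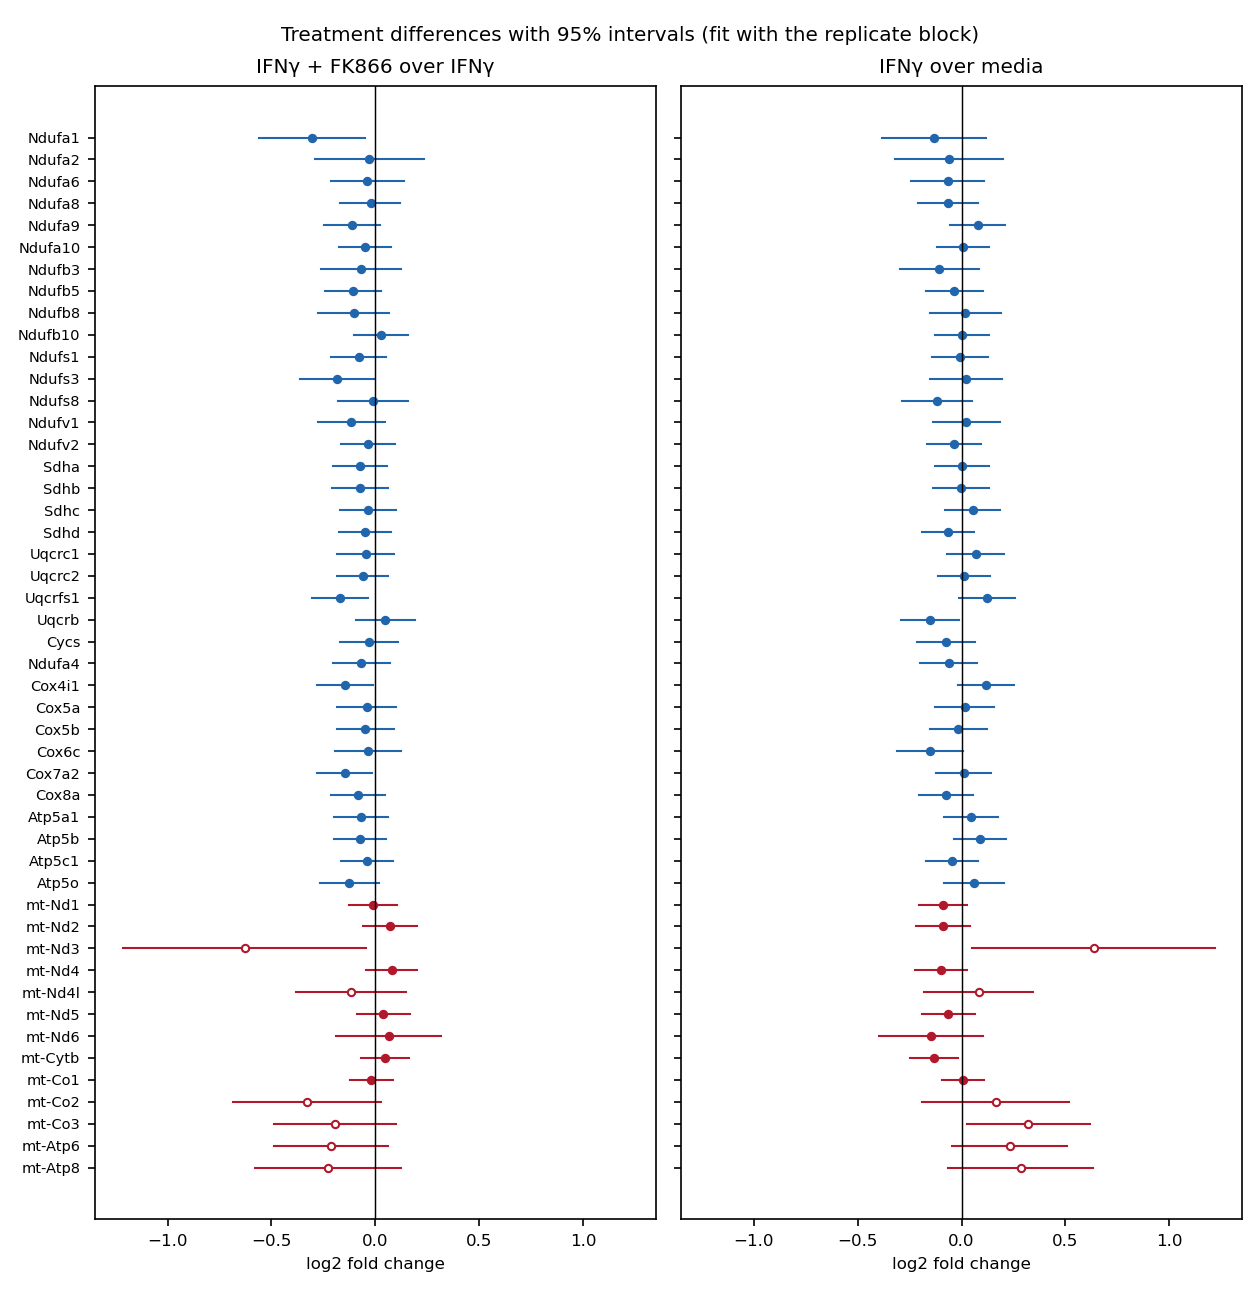
Log2 fold changes of the 48 members with 95% intervals from the edgeR fit with the replicate block, for IFNγ plus FK866 over IFNγ and for IFNγ over media; blue is nuclear, red mitochondrial, and open symbols are the 6 low mitochondrial genes. Nuclear points lie between -0.31 and 0.05 on the left and between -0.15 and 0.12 on the right, and the open symbols lie below 0 on the left and above 0 on the right.

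Summed over the members, the treatment means differed by less than the spread between libraries of a group, which includes the differences between numbers. The nuclear members added to 5754 ± 619.6 CPM with IFNγ plus FK866, 6038 ± 670.2 CPM with IFNγ and 5934 ± 380.5 CPM in media (SD, n = 3 each). In numbers 3, 4 and 5 the nuclear sum was 6260, 5063 and 5939 CPM with IFNγ plus FK866. It was 6288, 5279 and 6548 CPM with IFNγ, higher in each of the 3 pairs, and 6126, 5496 and 6180 CPM in media. The mitochondrial members added to 40451 ± 6587 CPM, 40413.5 ± 8410.4 CPM and 41618.5 ± 7106 CPM in the same groups. The ratio of the mitochondrial to the nuclear sum was 7.001 ± 0.438 with IFNγ plus FK866, 6.65 ± 0.765 with IFNγ and 6.98 ± 0.808 in media. Within the numbers the ratio was 7.34, 5.83 and 6.77 with IFNγ, against 7.74, 6.13 and 7.08 in media, lower in each of the 3 pairs. With IFNγ plus FK866 it was 7.20, 6.50 and 7.31, above the IFNγ value in numbers 4 and 5 and below it in number 3. These sums include the 6 low mitochondrial genes, whose counts are uncertain. With the 7 other mitochondrial members alone, the ratio was 6.98 ± 0.435 with IFNγ plus FK866, 6.62 ± 0.760 with IFNγ and 6.96 ± 0.803 in media.

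The library numbers, unlike the treatments, separated the respiratory chain genes. Each number had a library of each treatment. Whether the libraries of a number are independent of each other is not stated, so the p-values describe these libraries and not repeats of a number. Number 3 was set against the mean of numbers 4 and 5 in a fit that also held the treatment, and 33 of 48 members were called, where 38.5% of all genes were. Of the members 30 were higher (19.6% of all genes) and 3 were lower (18.9% of all genes). The median log2 fold change was 0.18 over the nuclear and 0.34 over the mitochondrial members, and 0.00 over all genes. The libraries of number 3 all lay above those of numbers 4 and 5 for 17 members (10.4% of all genes) and below for 2 (11% of all genes). Over all genes the calls were divided nearly evenly between higher and lower, whereas 30 of the 33 members called were higher. Higher here means above the mean of numbers 4 and 5, not above each of them. Of the higher members, 8 nuclear and 6 mitochondrial were also called lower in number 4 than in number 5. A further 8 nuclear and 5 mitochondrial were not called between numbers 4 and 5, and 3 nuclear were higher in number 4. Sdhb averaged 208 CPM in number 3 and 206 CPM in number 5.

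**Figure D4:**
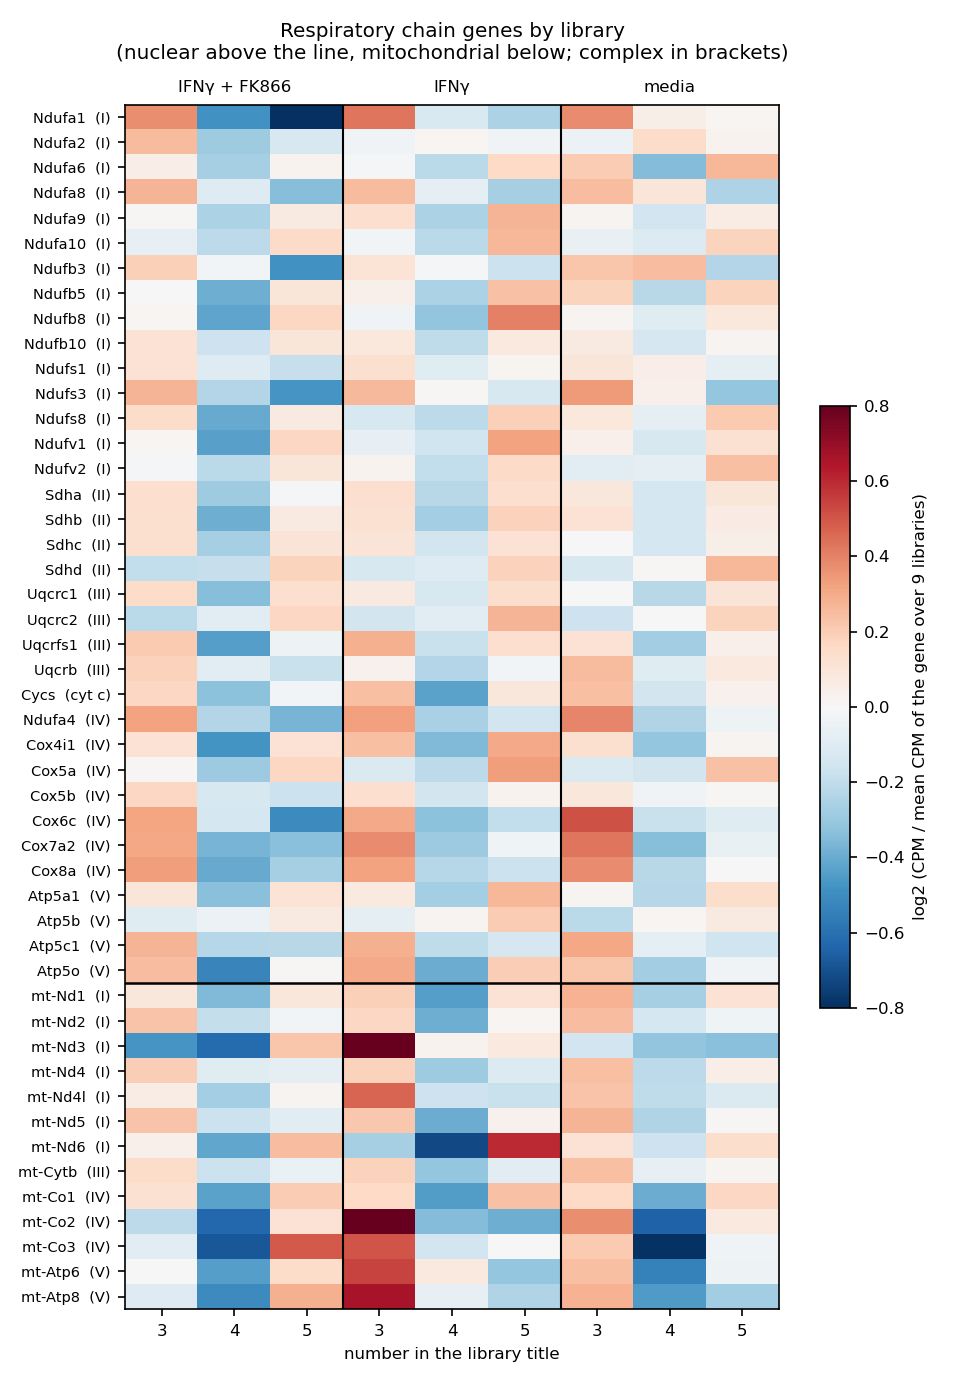
Level of each member in each library as log2 of its CPM over its mean CPM in 9 libraries; rows are genes with the complex in brackets, columns are libraries by treatment and number, and values past the ends of the colour scale take the end colour. Number 4 is mostly blue in all 3 treatments, number 3 is mostly red, and the treatments show no block of their own.

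The nuclear genes of complex IV had the highest median of the complexes in number 3, at 0.56, with 6 of 7 higher. Cox7a2 had 122, 128 and 133 CPM in number 3 (with IFNγ plus FK866, IFNγ and media), 76.3, 80.8 and 77.8 CPM in number 4, and 78.3, 96.5 and 94.8 CPM in number 5. Every number 3 library was above every other, by 1.53-fold in the fit (log2 0.61, SE 0.05, edgeR adjusted p = 2.73e-08). Cox8a had 178, 177 and 184 CPM in number 3, 107, 121 and 122 CPM in number 4, and 118, 126 and 141 CPM in number 5, again without overlap and with log2 0.56 (SE 0.05). Ndufa4, with 172, 173 and 180.0 CPM in number 3, reached at most 134 CPM elsewhere (log2 0.56), and Cox6c, with 161, 159.6 and 184 CPM, at most 121 CPM (log2 0.61). Cox4i1 and Cox5b, an early-assembling and a zinc-binding subunit, rose by 0.28 and 0.20. Cox4i1 averaged 190 CPM in number 3, 130 CPM in number 4 and 188 CPM in number 5. Cox5a was the 1 nuclear subunit of the 7 that was not called, at -0.09: its levels of 79.97, 73.3 and 73.4 CPM in number 3 lay between 65.0 to 71.6 CPM in number 4 and 89.1 to 100.3 CPM in number 5. The mitochondrial subunits were all called, mt-Co1 at 0.26, mt-Co3 at 0.40 and mt-Co2 at 0.68. With Gm28661 added, mt-Co2 was at 0.36 (SE 0.10, edgeR adjusted p = 0.00508).

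In complex I, 6 of 15 nuclear members rose and none fell. Ndufa1, whose values are given above, was never below 27.1 CPM in number 3 nor above 21.6 CPM in the other libraries (log2 0.66, SE 0.10, edgeR adjusted p = 2.83e-05). Ndufs3, a core subunit of the arm that carries the iron-sulfur clusters, had 39.0, 38.5 and 40.8 CPM in number 3, 27.4, 32.5 and 33.1 CPM in number 4, and 23.2, 29.6 and 26.0 CPM in number 5 (log2 0.47). Ndufa8, an accessory subunit of the intermembrane side, rose by 0.41, Ndufb3 by 0.28, Ndufs1, which holds several iron-sulfur clusters, by 0.18, and Ndufb10 by 0.14. The other 9 lay between -0.06 for Ndufa10 and 0.14 for Ndufa6, among them Ndufv1 and Ndufv2, the NADH-binding module, at 0.02 and -0.02. Of the 7 mitochondrial subunits 5 rose: mt-Nd4l by 0.41, mt-Nd5 by 0.38, mt-Nd2 by 0.34, mt-Nd4 by 0.33 and mt-Nd1 by 0.31. mt-Nd3 was at 0.29 with an interval from -0.21 to 0.80, and mt-Nd6 at 0.00 with an interval from -0.21 to 0.22.

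The remaining complexes contained the 3 members that fell. Sdhd, a membrane anchor of complex II, had 75.4, 79.0 and 79.0 CPM in number 3, 76.1, 80.3 and 87.0 CPM in number 4, and 97.8, 98.2 and 104 CPM in number 5, a difference of -0.21. Uqcrc2, a core protein of complex III, had 94.99, 99.9 and 98.5 CPM in number 3, 104, 104 and 110.2 CPM in number 4, and 124, 133 and 125 CPM in number 5, a difference of -0.25 with no overlap. Atp5b fell by 0.18. Their relatives did not follow: Sdha and Sdhb, the catalytic subunits of complex II, rose by 0.19 and 0.20, Uqcrfs1 and Uqcrb rose by 0.33 and 0.25, and mt-Cytb rose by 0.30. In complex V, Atp5c1, the central stalk, had 251, 253 and 258 CPM in number 3 and at most 197 CPM elsewhere (log2 0.46), and Atp5o, part of the peripheral stalk, rose by 0.43, mt-Atp6 by 0.44 and mt-Atp8 by 0.49. Cycs had 234, 247 and 247 CPM in number 3, 167, 155 and 189 CPM in number 4, and 206, 222 and 214 CPM in number 5 (log2 0.35, SE 0.06, edgeR adjusted p = 6.15e-05). Uqcrc1, Sdhc and Atp5a1 were at 0.13, 0.125 and 0.12 and were not called.

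Number 4 stood low against number 5. Of the 48 members 32 were called, where 31.1% of all genes were, 29 of them lower (15.2% of all genes) and 3 higher (15.9% of all genes). The median was -0.29 over the nuclear and -0.29 over the mitochondrial members, against 0.01 over all genes. The number 4 libraries all lay below the number 5 libraries for 28 members (17.1% of all genes) and above for 2, Ndufa8 and Ndufb3 (16.9% of all genes). The contrast shares its libraries with the one above, so the same low number 4 libraries enter both.

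The strongest case was mt-Co1, with 13108 to 13588 CPM in number 4, against 20058 to 21015 CPM in number 5 (log2 -0.625, SE 0.05, edgeR adjusted p = 1.21e-08); number 3, at 19427 to 20013 CPM, was near number 5. The other mitochondrial members that fell had log2 fold changes of -0.77 for mt-Nd6, -0.71 for mt-Co3, -0.50 for mt-Co2, -0.46 for mt-Nd1, -0.26 for mt-Nd5 and -0.225 for mt-Nd2. mt-Nd6 had 209, 169 and 249 CPM in number 4 and 331, 422 and 307 CPM in number 5. It lies on the opposite strand and starts at chrM:13552, before mt-Nd5 ends at chrM:13565. Whether the counting used strand is not given, so its reads cannot be assigned to it with certainty. The other 6 mitochondrial members, mt-Nd3, mt-Nd4, mt-Nd4l, mt-Atp6, mt-Atp8 and mt-Cytb, were between -0.30 and -0.13 and were not called. Complex II was called in full, 4 of 4 lower, at -0.375 for Sdhb, -0.30 for Sdhd, -0.29 for Sdha and -0.27 for Sdhc. In complex III, Uqcrc1 (-0.35), Uqcrfs1 (-0.34) and Uqcrc2 (-0.26) fell, as did Cycs (-0.33).

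In complex IV, Cox6c, Cox8a, Ndufa4 and Cox5b lay between -0.135 and 0.05 and were not called. Cox4i1, by contrast, had 122, 132 and 136 CPM in number 4 and 183, 209 and 172 CPM in number 5 (log2 -0.53, SE 0.065, edgeR adjusted p = 4.84e-06), and Cox5a (-0.46) and Cox7a2 (-0.195) fell as well. In complex I, 9 of 15 nuclear members fell, with log2 fold changes of -0.50 for Ndufb8, -0.46 for Ndufb5, -0.44 for Ndufv1, -0.43 for Ndufa6, -0.38 for Ndufs8, -0.375 for Ndufa10, -0.355 for Ndufa9, -0.32 for Ndufv2 and -0.23 for Ndufb10. Ndufb3, Ndufa8 and Ndufs3 rose by 0.36, 0.26 and 0.24, and these 3 were also higher in number 3. In complex V, Atp5o (-0.46) and Atp5a1 (-0.45) fell, while Atp5b and Atp5c1 were at -0.12 and 0.00. Of the 7 chromosome 1 copies, Gm28437 (-0.60), Gm29216 (-0.585), Gm28661 (-0.49) and Gm28438 (-0.365) were lower in number 4 than in number 5, and Gm10925 (0.30) was higher in number 3 than in numbers 4 and 5.

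**Figure D5:**
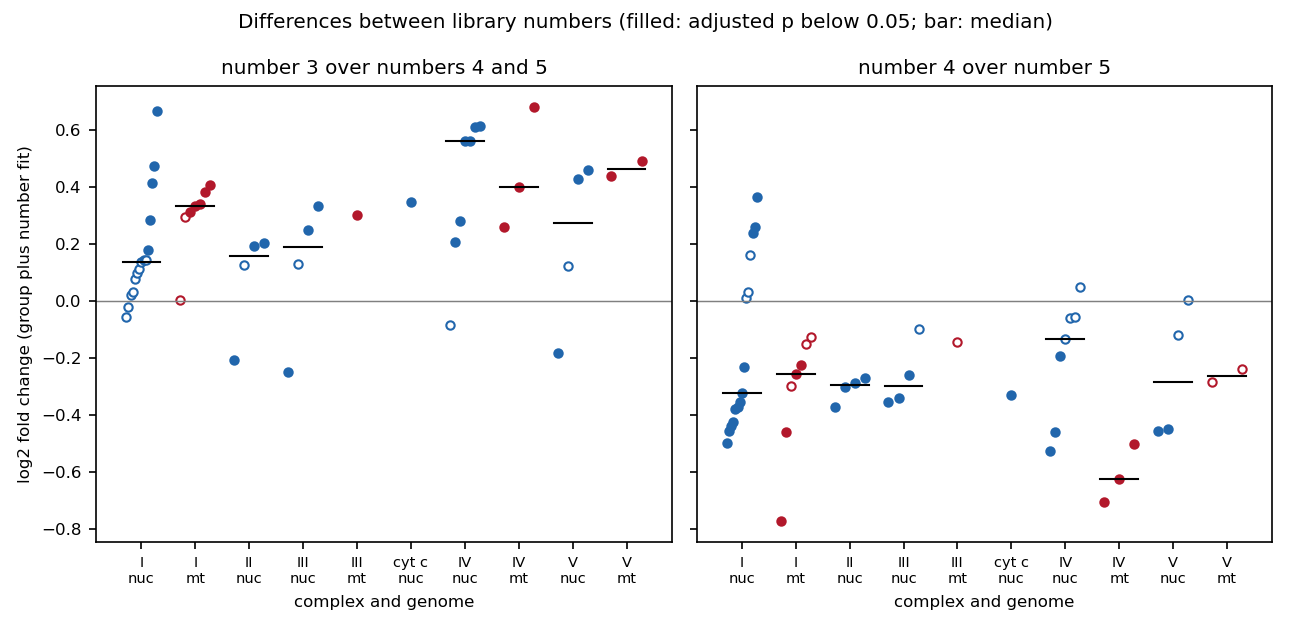
Log2 fold change of each member between library numbers, by complex and genome (nuc, nuclear; mt, mitochondrial), from the edgeR fit of treatment plus number; filled points have an adjusted p below 0.05 and bars are medians of groups with more than 1 gene. On the left the nuclear complex IV genes sit highest, with a median of 0.56, and on the right nearly all filled points are below 0.

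Added up, the members of both genomes were lowest in number 4. The mitochondrial members summed to 46204 ± 1169.95 CPM in number 3, 32449 ± 1512 CPM in number 4 and 43829.6 ± 455 CPM in number 5. The nuclear members summed to 6225 ± 86.5, 5279 ± 216 and 6222 ± 307 CPM (SD, n = 3 each). The libraries of a number differ in treatment, so these SDs are not a spread over replicates of a condition. The mitochondrial to nuclear ratio was 7.42 ± 0.279, 6.15 ± 0.336 and 7.05 ± 0.272 in the same order. Without the 6 low mitochondrial genes it was 7.39 ± 0.277, 6.13 ± 0.339 and 7.03 ± 0.267. Per kilobase, the nuclear genes of complex IV summed to 928 ± 10.4 CPM in number 3, 648 ± 23.4 CPM in number 4 and 737 ± 55.3 CPM in number 5. The nuclear genes of complex II summed to 241 ± 2.03, 205 ± 13.7 and 256 ± 6.996 CPM per kilobase, so that number 5 was highest there. The mitochondrial ribosomal RNAs were also lowest in number 4, at 8103 ± 909.8 CPM in number 3, 5449 ± 391 CPM in number 4 and 8923 ± 1341 CPM in number 5. Their mean was highest in number 5, whereas that of the mitochondrial members was highest in number 3. The part of the ribosomal RNAs in the differences was not tested.

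The length of all annotated exons merged moved with the differences between numbers among the nuclear members. It is not the length of the transcript in these cells, which was not measured. For number 3 against numbers 4 and 5 the median was 0.41 over the 7 nuclear members with at most 1000 bases of exon and 0.14 over the 28 longer ones, and for number 4 against number 5 it was 0.01 and -0.34. Across the 35 genes, which share the same libraries, Spearman's rho between log2 fold change and exon length was -0.35 and -0.33. Over all genes the medians of 5 length classes stayed between -0.055 and 0.024 for number 3 and between -0.053 and 0.03 for number 4. The part of length in the members' differences was not tested.

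Lists of other mitochondrial genes were read against the 38.5% of all genes called for number 3 and the 31.1% called for number 4. Of 43 other oxidative phosphorylation subunits tested, 0 were called in any of the 3 treatment comparisons, with or without the block. For number 3 against numbers 4 and 5, 24 rose and 1 fell (median 0.22), and for number 4 against number 5, 3 rose and 18 fell (median -0.16). Of 18 genes of the TCA cycle and pyruvate entry, 12 rose and 4 fell in number 3, and 0 rose and 14 fell in number 4. Of 31 small-subunit proteins of the mitochondrial ribosome, 6 rose and 5 fell in number 3, and 1 rose and 12 fell in number 4. Of 45 assembly factors, 9 rose and 7 fell in number 3, and 4 rose and 7 fell in number 4. Of 16 genes of mitochondrial DNA and transcription, 3 rose and 2 fell in number 3, and 4 rose and 1 fell in number 4. Of 18 genes of mitochondrial RNA processing and decay, 5 rose and 3 fell in number 3, and 2 rose and 3 fell in number 4. Of 10 transcriptional regulators, 3 rose and 2 fell in number 3, and 1 rose and 2 fell in number 4. Of 14 stress and protease genes, 6 rose and 0 fell in number 3, and 1 rose and 4 fell in number 4. The differences between lists were not tested.

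Without the block, 2 of 10 transcriptional regulators were called for IFNγ against media, where 3.3% of all genes were. For IFNγ plus FK866 against media 2 of 10 were called as well, where 3.36% of all genes were. Ppargc1b had 13.1, 11.7 and 13.9 CPM with IFNγ plus FK866 and 13.4, 14.0 and 14.2 CPM with IFNγ, against 19.8, 24.8 and 25.2 CPM in media. All 6 IFNγ-treated libraries were below all media libraries, and it fell by 0.75 with IFNγ (SE 0.14, edgeR adjusted p = 0.0185) and by 0.85 with IFNγ plus FK866 (SE 0.14, edgeR adjusted p = 0.00906). Ppard, a fatty-acid-sensing nuclear receptor, had 124, 118 and 108 CPM with IFNγ plus FK866 and 125, 126 and 117 CPM with IFNγ, against 86.5, 74.7 and 88.3 CPM in media, a rise of 0.56 with IFNγ (SE 0.10, edgeR adjusted p = 0.0136). Sdhaf2, which attaches FAD to the flavoprotein of complex II, rose by 0.48 with IFNγ (SE 0.11, edgeR adjusted p = 0.0405). It was the 1 of 45 assembly factors called, where 3.3% of all genes were. Its client Sdha was at 0.00 with the block.

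With the block, the IFNγ contrast also called Pnpt1, a mitochondrial RNA exonuclease, with 77.4, 83.7 and 61.7 CPM with IFNγ, against 45.6, 52.0 and 42.2 CPM in media (log2 0.67, SE 0.07, edgeR adjusted p = 1.96e-07). It called Fastk (0.32) and the ribosomal protein Mrps16 (0.435) as higher and Esrra (-0.41, edgeR adjusted p = 0.00518) as lower. In that fit 14.3% of all genes were called. The lists had 2 of 18 RNA processing genes, 1 of 31 ribosomal proteins, 1 of 45 assembly factors and 3 of 10 regulators called. Between IFNγ plus FK866 and media the block fit called Tfb2m, a mitochondrial transcription factor, as lower (-0.385), with Atpaf2 (-0.24) and Grsf1 (-0.21). Pnpt1 (0.66), Ndufaf5 (0.375) and Fastk (0.28) were higher. There 16.1% of all genes were called, beside 3 of 45 assembly factors, 3 of 18 RNA processing genes, 1 of 16 genes of mitochondrial DNA and transcription and 2 of 10 regulators. Against IFNγ alone, FK866 moved none of the genes in the lists of subunits, assembly factors, RNA processing, transcription, regulators, ribosomal proteins, TCA cycle or proteases past the threshold, with or without the block. Esrra itself varied with the numbers, at 27.0, 22.6 and 30.1 CPM in number 3, 14.2, 10.9 and 14.9 CPM in number 4, and 16.2, 15.2 and 19.7 CPM in number 5 (log2 0.82 for number 3 against numbers 4 and 5, SE 0.08, edgeR adjusted p = 1.19e-07). The regulators did not move together there: 3 of 10 were higher and 2 lower, with estimates from -0.41 to 0.93, where 38.5% of all genes were called.

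Promoter windows of the nuclear members were searched for short motifs of the textbook activators. Of the 35 genes, 27 matched a promoter in RefSeq (GRCm38.p6), from 250 bases before to 50 bases after the start. On either strand, the palindromic NRF1 motif was in 1 of 27 (3.7%, against 1.07% of 27025 genes), its central letters GCATGC, which overlap it, in 6 (22.2%, against 8.93%), the ETS motif CCGGAAG in 5 (18.5%, against 9.93%) and the YY1 motif AAGATGGCG in 1 (3.7%, against 1.64%). The windows printed are Cox8a with 2 ETS matches (chr19:7217567-7217866, minus strand) and Cycs with GCATGC (chr6:50566520-50566819, minus strand), both higher in number 3, and Uqcrc1 with the whole NRF1 motif (chr9:108936398-108936697, plus strand), lower in number 4 than in number 5. Capitals mark the matches.
Cox8a: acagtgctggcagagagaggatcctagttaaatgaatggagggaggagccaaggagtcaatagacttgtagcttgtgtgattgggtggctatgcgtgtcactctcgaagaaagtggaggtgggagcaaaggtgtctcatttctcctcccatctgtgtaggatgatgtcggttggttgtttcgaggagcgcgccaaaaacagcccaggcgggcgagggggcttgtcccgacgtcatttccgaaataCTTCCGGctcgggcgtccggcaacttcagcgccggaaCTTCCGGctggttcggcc
Cycs: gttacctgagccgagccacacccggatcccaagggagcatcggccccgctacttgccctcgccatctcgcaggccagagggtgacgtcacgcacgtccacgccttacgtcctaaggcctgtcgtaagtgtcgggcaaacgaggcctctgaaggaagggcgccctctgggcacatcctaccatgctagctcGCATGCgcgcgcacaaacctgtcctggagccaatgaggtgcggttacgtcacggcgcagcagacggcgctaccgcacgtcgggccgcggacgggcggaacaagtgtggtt
Uqcrc1: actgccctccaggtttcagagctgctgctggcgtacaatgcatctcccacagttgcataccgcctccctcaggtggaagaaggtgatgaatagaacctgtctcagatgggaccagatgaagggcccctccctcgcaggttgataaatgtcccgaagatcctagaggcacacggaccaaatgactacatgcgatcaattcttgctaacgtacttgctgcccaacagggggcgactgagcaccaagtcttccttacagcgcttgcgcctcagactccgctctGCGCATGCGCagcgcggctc
Cox7a2 and Ndufa4, which rose as much as Cox8a in number 3, held none of these letters in their windows. The windows printed were picked from called members. Of the other genes with the ETS motif, Ndufs3 and Sdhb were higher in number 3, Sdhd was lower and Ndufs8 was not called. Of the others with GCATGC, Ndufa8, Sdhb and Atp5o were higher there, while Ndufa6 and Uqcrc1 were not called. The part of these motifs in the differences was not tested. A match is a description of the sequence and not a measurement of binding.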

How the data were processed

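The authors deposited raw read counts per Ensembl gene for 9 bulk libraries, whole numbers in the deposited table. Per the submitters' processing notes, which give no role or order, the tools were DESeq2 1.30.1, featureCounts 1.6.3, STAR 2.7.6a and cutadapt 1.16, and the builds mm10 and GRCm38. The series text names a platform often used for single cells, but the table holds no values per cell. Not stated there are strandedness, annotation release, treatment of reads with several places and duplicate removal, so antisense and copied genes are uncertain. Samples are labelled polyA RNA.

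Counts were fitted in R 4.3.3 with edgeR 4.0.16 (filterByExpr, TMM, quasi-likelihood F test, 9 libraries in 1 fit), with Benjamini-Hochberg adjustment over 15237 genes and calls at an adjusted p below 0.05. Treatments were compared as group means, and library numbers in a model of treatment plus number. The numbers came from the titles. Deviations from the group means correlated at 0.555 to 0.728 in the 9 same-number pairs and at -0.477 to -0.112 in the 18 other pairs, so the numbers pair the libraries and the fit with number as a replicate block is given beside each treatment result. CPM use TMM-scaled totals, levels per kilobase use merged exons of GENCODE M21, and intervals are 95%. Copies were found with blastn 2.17.0 at 95% identity over at least 100 bases. Pairwise log2 differences add 0.5 CPM. The scripts were tested on simulated counts.

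All 48 members are accounted for. Genes named are the members called, or else the 3 of each genome with the smallest p, and the 3 highest and lowest per length. Named too are the genes of other lists called between treatments, at most 4 of a list, and near-identical copies that were called. Names beyond this, such as Uqcrb and Cox7a2 with the block and the other low mitochondrial genes, were chosen after their values were seen. Members and lists were chosen with earlier results of these data known. Alternatives were DESeq2 1.42.0, its size factors, library totals, scaling without mitochondrial genes, no filter, 2 groups only and leaving out each library. Added after seeing the data were leaving out each library with the block and adding the chromosome 1 copies to their genes. No sum or list over members was tested.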

Additional observations from a re-analysis of the deposited data

How the results depend on the processing

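For the 3 treatment comparisons, the count of members called stayed at 0 under DESeq2, other scalings, no filter, 2 groups only and each library left out (0 to 0). The replicate block, edgeR or DESeq2, gave 1 for IFNγ plus FK866 against media (Ndufa1), as did adding the copies with the block. With the block and 1 library left out, that comparison gave 0 to 3: 2 without media 3 (Ndufa1, Cox8a), 1 without each IFNγ library, 3 without IFNγ plus FK866 3 (Ndufa1, Ndufs8, Cox8a) and 1 without IFNγ plus FK866 4 (Cox6c). IFNγ against media then gave 0 to 5: 1 without media 5 (mt-Nd6), 5 without IFNγ 5 (mt-Nd6, mt-Co2, mt-Co3, mt-Atp6, mt-Atp8) and 1 without IFNγ plus FK866 5 (mt-Co3). The cause was not tested.

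The counts for number 3 (33) and for number 4 (32) ranged over 24 to 34 and 27 to 34 with a library left out, and no called member changed direction. Scaling without mitochondrial genes put the complex I nuclear sum in media at 598 CPM per kilobase.

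Uncalled mitochondrial genes changed sign. With 1 library left out, mt-Atp8 ranged from -0.03 (without IFNγ 3) to 0.533 for IFNγ against media. For IFNγ plus FK866 against IFNγ, mt-Co2 ranged from -0.623 to 0.162 and mt-Atp6 from -0.407 to 0.03, both highest without IFNγ 3, where mt-Co2 was 0.01 with the block. With copies added they were 0.215 and 0.105, and 0.255 and 0.124 with the block. For IFNγ plus FK866 against media, mt-Cytb ranged from -0.179 to 0.002, mt-Co2 from -0.441 to 0.03 and mt-Nd1 from -0.241 to 0.032, above 0 without media 3 (mt-Nd1 there 0.019) and, for mt-Nd1, without IFNγ plus FK866 4. mt-Co2 was 0.139 without IFNγ plus FK866 3 with the block, and 0.112 and 0.137 with copies added, without and with the block. Genes with few counts, such as mt-Nd3, limit what can be detected.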
